A study of Mus musculus with 4 samples.

Results

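The Klf family was followed through 4 RNA-seq libraries of mouse stem cells, as 10 genes chosen by name: Klf2, Klf3, Klf4, Klf5, Klf6, Klf7, Klf9, Klf10, Klf13 and Klf16. They are 10 of the 37620 Ensembl genes in the count tables, and their symbols came from the annotation of the NCBIM37 mouse genome. Cells of R1, a mouse embryonic stem cell (mESC) line, were kept for 2 days in medium with serum and without feeder cells. All 3 mESC cultures held CHIR99021 (3 µM), which inhibits GSK3, with PD0325901 (1 µM), which inhibits MEK, a pair known as 2i, and the culture with nothing further, labelled 2i, is called 2i−L here because it lacked the cytokine LIF. The culture labelled 2i-Jaki, here 2iJ, also received a JAK inhibitor at 2 µM, and the culture labelled 2i-Jaki-BMP-Alk5i, here 2iJ+B−A, received the JAK inhibitor together with BMP4 at 10 ng/ml and ALK5 inhibitor II at 10 µM. The last library came from trophoblast stem cells (TSCs) of the F4 line, whose label also says day 2 and names no treatment. Each condition is 1 library of 1 cell line, so no difference reported has a replicate check, and the intervals given are 95% intervals that cover counting error only.

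Krüppel-like factors are transcription factors with zinc fingers at the end of the protein that bind CACCC boxes and GC-rich sequence, close relatives of the Sp factors. The members differ mostly outside the zinc fingers: Klf2, Klf4, Klf5, Klf6 and Klf7 mainly activate transcription, Klf3 represses it through CtBP, and Klf9, Klf10, Klf13 and Klf16 can repress it through Sin3A and histone deacetylases. In mESCs, Klf2, Klf4 and Klf5 are known as overlapping supports of the naive pluripotency network, Klf4 and Klf5 as genes that respond to LIF through JAK and STAT3, and Klf2 as a protein that the MEK/ERK pathway destabilizes.

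Between 33913984 and 36964392 read pairs per library were counted on genes, and 3 counts on a gene, the smallest signal taken as detectable, correspond to between 0.0799 and 0.0902 normalized counts relative to library size (CPM) after TMM normalization. All 10 Klf genes lay far above that level, with 202 to 8698 counts, and all passed the filter of at least 1 CPM in at least 1 library that left 14263 genes. The labels were checked against marker genes. The summed level of 7 mESC markers was between 1918 and 3308 CPM in the mESC libraries and 455 CPM in TSCs, where Pou5f1 stood at 1.34 CPM, Nanog at 2.65 CPM and Sox2 at 154 CPM, while Utf1, another of them, was highest in TSCs with 174 CPM. The summed level of 9 TSC markers was 211 CPM for 2i−L, 282 CPM for 2iJ, 1293 CPM for 2iJ+B−A and 3569 CPM for TSCs, of which Krt8 and Krt18 gave 553 and 521 CPM in 2iJ+B−A. Eomes, a core TSC factor, went the other way between the mESC libraries, with 12.4, 10.7 and 2.74 CPM in the order given, and had 179 CPM in TSCs. Elf5, a gene that marks committed trophoblast, had 298 CPM in TSCs against at most 0.133 CPM in the mESC libraries.

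The 10 genes split by how far their levels spread. Klf2, Klf4 and Klf3 had a highest level 36.6, 12.7 and 6.22 times the lowest, and in each of the 3 the lowest level was that of TSCs. Klf6 and Klf5 spanned 2.43 and 2.33 times. The other 5 genes, Klf7, Klf9, Klf10, Klf13 and Klf16, spanned 1.41 to 1.80 times. Among the 3 mESC libraries, only Klf4 and Klf5 spanned 2-fold or more, 2.27 and 2.33 times. The highest level was found in 2iJ+B−A for 5 genes, in 2i−L for 4, in TSCs for 1, Klf6, and in 2iJ for none. Some of these places lie within counting error: the 2iJ+B−A and 2i−L intervals overlapped for Klf3 and Klf13, and those of 2i−L and TSCs for Klf16. The shares of all genes with such spreads or places were not worked out, so these counts describe the 10 genes only.

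**Figure D1:**
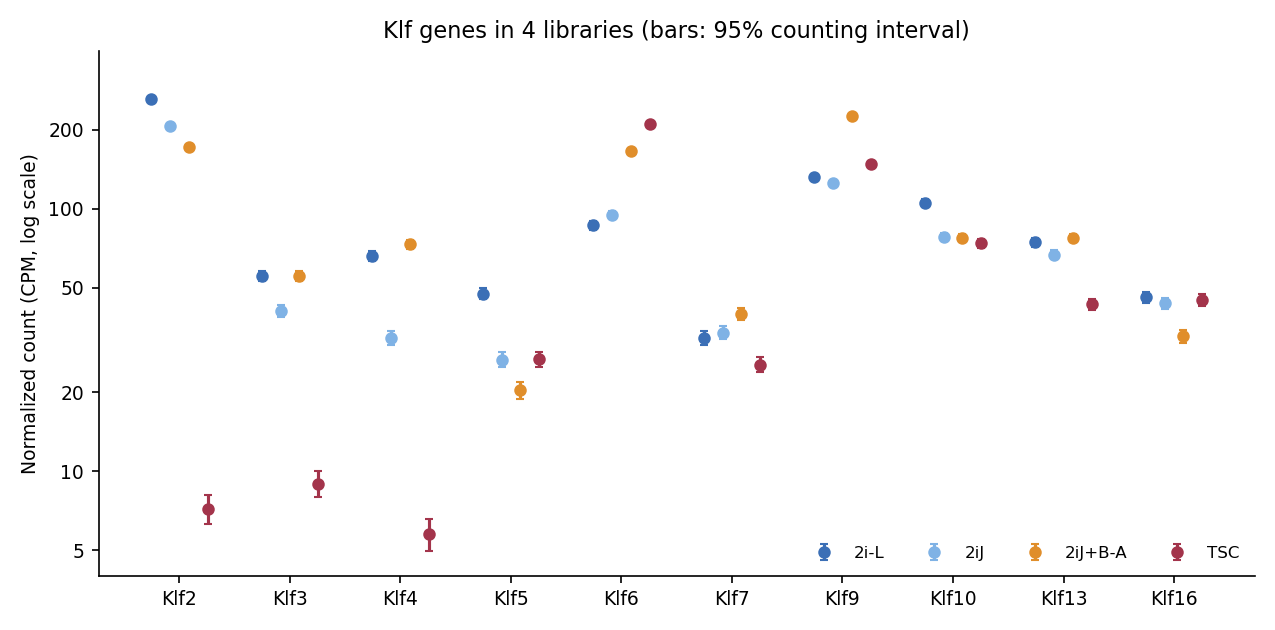
Normalized count of each Klf gene (CPM, log scale) in the 4 libraries, 1 point per library, with bars for the 95% counting interval. The TSC points of Klf2, Klf3 and Klf4 sit between 5.75 and 8.94 CPM, below every mESC point in the plot, whereas the TSC point of Klf6, at 210.1 CPM, is the highest of its gene.

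Klf2, best known as a factor of endothelial cells under flow and in mESCs as a stabilizer of the naive state, lies on chromosome 8 from 74842932 to 74845555, forward strand. It had 262 CPM for 2i−L (interval 256 to 267), 207 CPM for 2iJ (202 to 212), 171 CPM for 2iJ+B−A (167 to 175) and 7.15 CPM for TSCs (6.29 to 8.09). No 2 of these intervals overlapped, and the order 2i−L, 2iJ, 2iJ+B−A, TSCs was a descent with a short step at each change of medium and a long one to TSCs. Klf4, one of the classical reprogramming factors and a target of STAT3, lies on chromosome 4 from 55540013 to 55545347, reverse strand. It had 66.2 CPM for 2i−L (63.5 to 69.0), 32.2 CPM for 2iJ (30.4 to 34.2), 73.1 CPM for 2iJ+B−A (70.4 to 75.9) and 5.75 CPM for TSCs (4.99 to 6.60). The 2iJ library was thus the low one among the mESC libraries, and the 2iJ+B−A library the high one. Klf5, which acts in mESCs and is also needed for the trophectoderm of the blastocyst, lies on chromosome 14 from 99697910 to 99712624, forward strand. It had 47.5 CPM for 2i−L (45.2 to 49.9), 26.6 CPM for 2iJ (24.9 to 28.4), 20.3 CPM for 2iJ+B−A (18.9 to 21.8) and 26.7 CPM for TSCs (25.0 to 28.5). Its 2iJ and TSC levels did not differ beyond their counting intervals, so of these 3 genes only Klf5 had a TSC level within the range of the mESC libraries.

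Klf3, a repressor that recruits CtBP and is known from red blood cell and fat cell differentiation, lies on chromosome 5 from 65194628 to 65221368, forward strand. It had 55.5 CPM for 2i−L, 40.7 CPM for 2iJ, 55.6 CPM for 2iJ+B−A and 8.94 CPM for TSCs. The 2i−L and 2iJ+B−A levels did not differ beyond their counting intervals, and the order of its 4 levels was that of Klf4, over a smaller range.

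Klf6, first described from placenta and needed for liver and vascular development, lies on chromosome 13 from 5860735 to 5869639, forward strand. It had 86.5 CPM for 2i−L (83.3 to 89.7), 94.6 CPM for 2iJ (91.3 to 97.9), 166 CPM for 2iJ+B−A (162 to 170) and 210.1 CPM for TSCs (205 to 215). This was the reverse of the order of Klf2. Klf7, known from axon growth of neurons, lies on chromosome 1 from 64076021 to 64168856, reverse strand, and had 32.1 CPM for 2i−L, 33.7 CPM for 2iJ, 39.9 CPM for 2iJ+B−A and 25.4 CPM for TSCs. Its 2i−L and 2iJ intervals overlapped.

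Among the genes of the Sin3A-binding group, Klf9, which responds to glucocorticoid and thyroid hormone and acts with the progesterone receptor in the uterus, lies on chromosome 19 from 23215716 to 23241401, forward strand. It had 132 CPM for 2i−L (128 to 136), 125 CPM for 2iJ (122 to 129), 225 CPM for 2iJ+B−A (221 to 230.2) and 148 CPM for TSCs (144 to 152). The 2iJ+B−A library stood apart above the other 3. Klf10, an early gene of the response to TGF-beta, lies on chromosome 15 from 38221219 to 38230464, reverse strand, and had 105 CPM for 2i−L, 78.0 CPM for 2iJ, 77.3 CPM for 2iJ+B−A and 73.9 CPM for TSCs. The last 3 did not differ beyond their counting intervals, which left 2i−L as the library that stood above. Klf13, a factor of T cells and heart, lies on chromosome 7 from 71031237 to 71083801, reverse strand, and had 74.5 CPM for 2i−L, 66.9 CPM for 2iJ, 77.3 CPM for 2iJ+B−A and 43.3 CPM for TSCs. Klf16, known as a regulator of dopamine receptor genes, lies on chromosome 10 from 80029874 to 80040041, reverse strand, and had 46.0 CPM for 2i−L, 43.6 CPM for 2iJ, 32.7 CPM for 2iJ+B−A and 45.0 CPM for TSCs. Klf13 was thus lowest in TSCs, with 2i−L and 2iJ+B−A within overlapping intervals, and Klf16 was lowest in 2iJ+B−A with its other 3 levels within overlapping intervals.

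Promoter sequence is printed for Klf2 and Klf4, the genes with the widest spread, and for Klf6 and Klf9, which were both higher in 2iJ+B−A and in TSCs than in 2iJ. Each line holds the 250 bases before the gene start in RefSeq (GRCm38.p6), read 5′ to 3′ on the strand of the gene and placed in NCBIM37 by exact match: Klf2 at chr8:74842711-74842960, forward, whose last 29 bases lie inside the annotated gene, Klf4 at chr4:55545348-55545597, reverse, Klf6 at chr13:5860485-5860734, forward, and Klf9 at chr19:23215466-23215715, forward. Capitals mark CACCC, the box that Klf proteins bind, and GGGCGG, the GC box, read on either strand.
Klf2: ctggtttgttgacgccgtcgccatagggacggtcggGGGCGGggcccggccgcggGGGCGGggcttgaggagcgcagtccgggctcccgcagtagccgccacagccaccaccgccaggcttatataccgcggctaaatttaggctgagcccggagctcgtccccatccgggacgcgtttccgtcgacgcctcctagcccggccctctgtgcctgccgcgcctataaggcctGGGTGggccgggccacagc
Klf4: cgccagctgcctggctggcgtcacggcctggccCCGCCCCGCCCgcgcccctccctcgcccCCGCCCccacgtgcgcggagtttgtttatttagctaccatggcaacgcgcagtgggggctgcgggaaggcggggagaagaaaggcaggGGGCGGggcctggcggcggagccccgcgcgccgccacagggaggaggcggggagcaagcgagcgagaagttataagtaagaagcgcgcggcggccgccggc
Klf6: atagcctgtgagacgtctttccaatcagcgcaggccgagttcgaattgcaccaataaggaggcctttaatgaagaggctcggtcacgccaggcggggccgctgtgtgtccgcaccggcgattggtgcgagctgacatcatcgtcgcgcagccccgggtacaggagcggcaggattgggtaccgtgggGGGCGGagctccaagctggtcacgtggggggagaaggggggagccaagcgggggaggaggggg
Klf9: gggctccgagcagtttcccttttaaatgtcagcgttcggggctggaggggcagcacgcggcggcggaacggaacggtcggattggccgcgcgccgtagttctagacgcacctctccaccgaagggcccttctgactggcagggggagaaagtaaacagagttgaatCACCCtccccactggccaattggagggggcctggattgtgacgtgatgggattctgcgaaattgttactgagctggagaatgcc
The Klf2 window held 2 GC boxes far from the start, at positions −214 and −195, and 1 CACCC box at −19. Positions give the first base of a match, counted back from the gene start. The Klf4 window held 4 GC boxes, 2 of which share 1 base at −212, and no CACCC box, the Klf6 window 1 GC box at −63, and the Klf9 window 1 CACCC box at −84 and no GC box. Of the 10 genes, 7 had an entry in the promoter table, and among the remaining windows Klf3 held 5 CACCC and 6 GC boxes, Klf7 held 3 and 1, and Klf13 held 1 and 3. Of the Klf3 window 132 of 250 bases, and of the Klf7 window all 250, lie inside the annotated gene. Across the 32851 promoters of the table, 52% had at least 1 CACCC box and 32.7% at least 1 GC box in a window of this length. The letters TTCNNNGAA, the core of a STAT site, were found in the Klf9 window alone of the 7, at −33, and in 7.02% of all promoters. The letters GGCGCC, a GC-rich SMAD site, were in none of the 7 and in 9.59% of all promoters. These matches describe the printed windows and say nothing of binding. Klf5, Klf10 and Klf16 had no entry.

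The first comparison asked what JAK inhibition did to the family in cells already without LIF. Klf4 was down-regulated in 2iJ, with a log2 ratio of −1.03 to 2i−L (interval −1.13 to −0.92), and Klf5 came next, with −0.83 (−0.94 to −0.71), or 1.77-fold lower. Log2 ratios here are of CPM + 0.5. Klf4 was the single member past 2-fold, on a value whose interval reaches across that threshold, against 0.918% of all tested genes 2-fold or more lower and 1.23% 2-fold or more higher, a direction in which no member was found. Only 0.827% of all tested genes had a lower ratio than Klf4, and 1.66% a lower one than Klf5. The ratios of Klf3, Klf10 and Klf2 were −0.44, −0.43 and −0.34, those of Klf13, Klf9 and Klf16 between −0.15 and −0.075, and those of Klf7 and Klf6 0.068 and 0.13. Of the 10 genes 8 had a ratio below 0, with a median of −0.25 against 0.0049 over all genes. For Klf7 and Klf16, the counting interval included 0.

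The second comparison asked what BMP4 with the ALK5 inhibitor did on top of the JAK inhibitor. The paper describes its ALK inhibitor as acting on ALK4, ALK5 and ALK7, and uses it against Activin and Nodal signals. As BMP4 and the ALK5 inhibitor were given together, their parts cannot be told apart. Klf4 was up-regulated in 2iJ+B−A, with a log2 ratio of 1.17 to 2iJ (1.07 to 1.27), or 2.25-fold. Klf9 and Klf6 had ratios of 0.84 (0.79 to 0.90) and 0.81 (0.75 to 0.87), or 1.79-fold and 1.75-fold, and Klf5, Klf16 and Klf2 ratios of −0.38, −0.41 and −0.27. The 3 naive-state factors therefore did not all have the same direction: Klf4 was higher while Klf2 and Klf5 were slightly lower. Of all tested genes, 22.2% had a lower ratio than Klf2 and 15.8% a lower one than Klf5. Both lay between the 5th and 95th percentile of all genes, −0.80 and 1.09, and Klf4 lay above it, so the lower levels of Klf2 and Klf5 were within the common spread. Klf4 was the 1 member of 10 past 2-fold and in the upward direction, where 5.81% of all genes were, and no member was 2-fold or more lower, as 3.17% of all genes were. The ratios of Klf3, Klf7 and Klf13 were 0.45, 0.24 and 0.21, and that of Klf10 was −0.014 with an interval that included 0. Both comparisons share the 2iJ library, in which Klf4 was lowest. Set directly against 2i−L, 2iJ+B−A had a log2 ratio of 0.14 (0.061 to 0.22) for Klf4, 0.002 for Klf3, −0.61 for Klf2 and −1.20 (−1.33 to −1.08) for Klf5, whereas Klf6 and Klf9 stayed at 0.94 and 0.77. Klf5 was thus the 1 member of 10 that was 2-fold or more below its 2i−L level in 2iJ+B−A, as 4.52% of all genes were, and 2.97% of all genes had a lower ratio. No member was 2-fold or more higher, as 7.93% of all genes were.

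**Figure D2:**
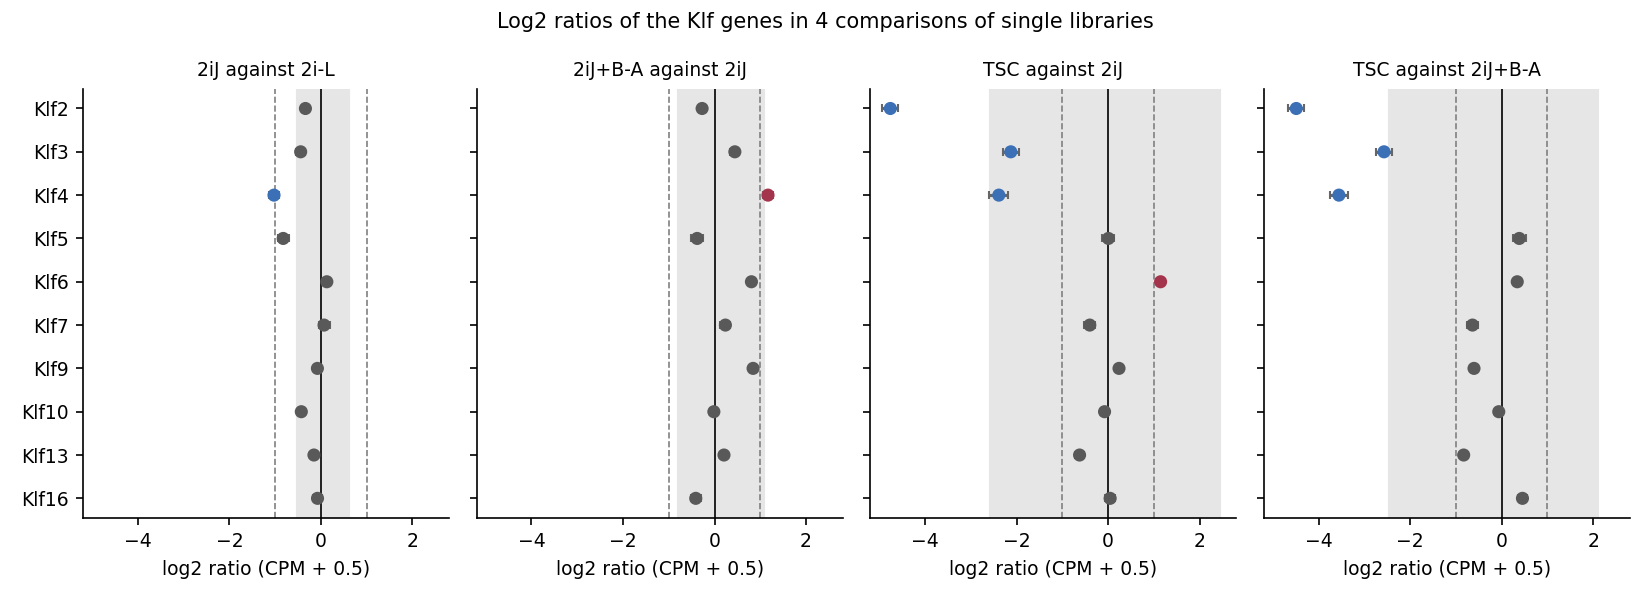
Log2 ratio (CPM + 0.5) of each Klf gene in 4 comparisons of single libraries, with bars for the 95% counting interval, dashed lines at 2-fold and a grey band from the 5th to the 95th percentile of all 14263 tested genes. Blue points are 2-fold or more lower and red points 2-fold or more higher. Klf4 is the coloured point in the first 2 panels, at −1.03 and 1.17, and Klf2, Klf3 and Klf4 are the low points in both TSC panels.

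Set against 2iJ, TSCs had less RNA of Klf2, Klf4 and Klf3 and more of Klf6. Klf2 was down-regulated 27.1-fold, a log2 ratio of −4.76 (−4.93 to −4.59), Klf4 5.24-fold, −2.39 (−2.60 to −2.19), and Klf3 4.36-fold, −2.13 (−2.30 to −1.96). Klf6 was up-regulated 2.22-fold, 1.15 (1.09 to 1.21). These 3 of 10 members stand beside 17.6% of all genes that were 2-fold or more lower in TSCs, and this 1 of 10 beside 19.4% that were 2-fold or more higher. Klf2 was nevertheless in the far tail, with 1.05% of all genes below it. The ratios of Klf13 and Klf7 were −0.62 and −0.40, that of Klf9 was 0.24, and those of Klf5, Klf16 and Klf10 were 0.007 (−0.12 to 0.14), 0.045 and −0.077, with intervals that included 0. The median of the 10 was −0.24 against 0.0027 over all genes. TSCs and mESCs also differ in cell line, so the cell type and the line cannot be told apart. In bulk RNA, fewer cells that hold a transcript and less of it per cell cannot be told apart.

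The comparison of TSCs with 2iJ+B−A, the mESC medium with the higher TSC marker level, gave the same 3 genes below 2-fold. Klf2 had a log2 ratio of −4.49 (−4.66 to −4.32), Klf4 −3.56 (−3.75 to −3.37) and Klf3 −2.57 (−2.74 to −2.41). They were 3 of 10 where 16.2% of all genes were 2-fold or more lower, and no member was 2-fold or more higher, as 16.4% of all genes were. Klf4 was 11.8-fold below its 2iJ+B−A level, the highest of its 4 levels. Klf6, with 0.34 (0.29 to 0.39), was closer between these libraries than between TSCs and 2iJ. Klf13, Klf7 and Klf9 had ratios of −0.83, −0.64 and −0.60, Klf16 and Klf5 0.46 and 0.39, and Klf10 −0.063 with an interval that included 0. These last 2 comparisons share the TSC library, and the mESC markers moved with them: their sum was 455 CPM, against 2865 CPM for 2iJ and 1918 CPM for 2iJ+B−A.

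Compared per length of exon, which allows levels of different genes to be set side by side, Klf2 was the most abundant Klf transcript in all 3 mESC libraries. It had 142 CPM per kb for 2i−L, 112 for 2iJ and 92.7 for 2iJ+B−A, and 3.87 CPM per kb for TSCs, where it ranked 7 of 10. Klf9 ranked 2 in every library, with 40.5, 38.4, 69.1 and 45.4 CPM per kb in the order 2i−L, 2iJ, 2iJ+B−A and TSCs. Klf6 moved from rank 7 in 2i−L, with 20.5 CPM per kb, to rank 1 in TSCs, with 49.8. Klf4, by contrast, was the least abundant of the 10 in TSCs with 1.88 CPM per kb. Among all genes that passed the filter, Klf2 lay at percentile 97.2 of this level in 2i−L and at percentile 39.1 in TSCs.

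The summed level of the 10 genes was 333 CPM per kb for 2i−L, 266 for 2iJ, 307 for 2iJ+B−A and 166 for TSCs. Klf2, Klf4 and Klf5 together held 57.3% of it with 2i−L, 51.9% with 2iJ, 41.8% with 2iJ+B−A and 12.8% for TSCs. Klf6 and Klf9 together held 18.3%, 22.9%, 35.3% and 57.4% in the same order. The 2iJ+B−A library was thus the mESC library with the smallest share for the naive-state trio and the largest for Klf6 and Klf9, although its Klf4 level was the highest of all. Klf6 and Klf9 were put together with their levels known. Their log2 ratios in 2iJ+B−A against 2iJ were 0.81 and 0.84, so the large share of this pair restates them and is no separate result. Without scaling by length, the share of the trio was smaller in every library, 41.4%, 35.5%, 28.2% and 6.67%, and its order was the same.

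**Figure D3:**
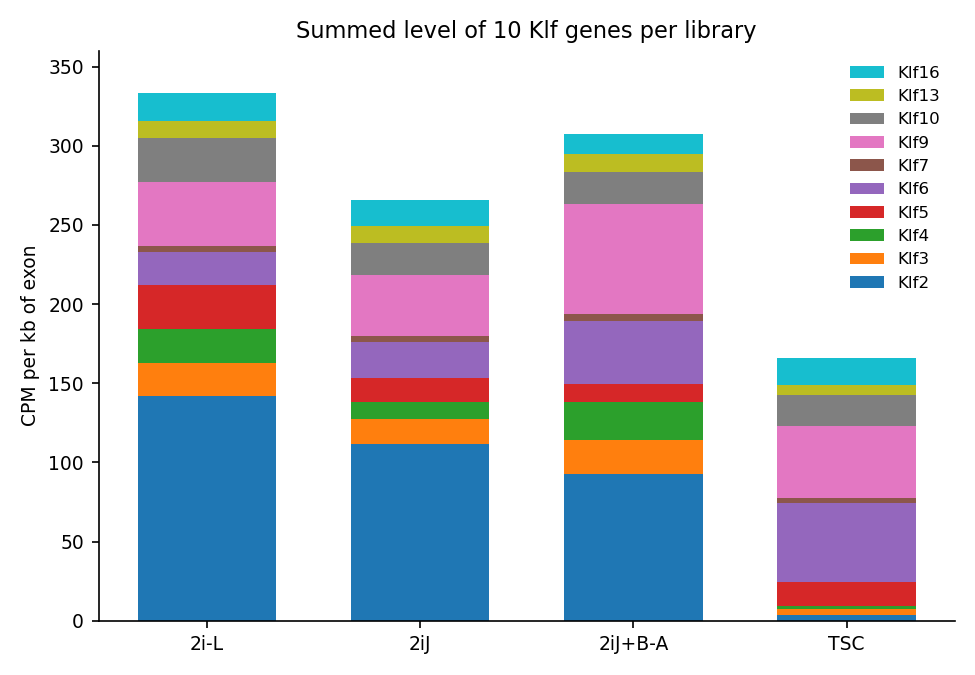
Stacked levels of the 10 Klf genes (CPM per kb of exon) in each library, 1 bar per library. The sum runs from 333 in 2i−L to 166 in TSCs, and the Klf2 segment shrinks from 142 to 3.87 while the Klf6 segment grows from 20.5 to 49.8.

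Klf4 and Klf5 are read in mESCs as outputs of LIF, JAK and STAT3, so 12 genes of that pathway were set beside them. In 2iJ against 2i−L, 2 of the 12 were 2-fold or more lower, beside 0.918% of all genes, and none higher, beside 1.23%. The median log2 ratio of the 12 was −0.19. Socs3, the feedback inhibitor that STAT3 induces, went from 4.90 to 0.99 CPM, a log2 ratio of −1.86, and Stat3 itself from 49.3 to 18.3 CPM, −1.41. In 2iJ+B−A, still with the JAK inhibitor, Socs3 was back at 3.86 CPM and Junb was at 11.5 CPM against 4.66 CPM in 2iJ, the 2 genes of the 12 past 2-fold and both higher, beside 5.81% of all genes, with a median of 0.022. Stat3 was at 15.3 CPM and Pim1, another STAT3 target, at 39.3 CPM against 65.4 CPM in 2iJ. Klf4, like Socs3, was thus lowest in 2iJ among the mESC libraries, and Klf5 had the descending order of Stat3 and Pim1. The pathway had no common direction in 2iJ+B−A against 2iJ, with 6 of the 12 ratios above 0 and 6 below, so these likenesses are of single genes. In TSCs, 8 of the 12 were 2-fold or more higher than in 2iJ, beside 19.4% of all genes, and 2 lower, a share near the 17.6% of all genes, with a median of 1.51. Socs3 had 40.8 CPM, Junb 111 CPM and Stat3 123 CPM, while Lifr, the receptor for LIF, had 2.62 CPM against 61.5 CPM. The low Klf4 level of TSCs thus stood beside high levels of Stat3 and Socs3, and the low Klf4 level of 2iJ beside low ones. The highest Klf4 level, that of 2iJ+B−A, stood beside the lowest Stat3 level, 15.3 CPM. Stat3 was read here as RNA, which does not give the activity of its protein. That activity was not measured in these libraries, and control of Klf4 or Klf5 by STAT3 was not tested.

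**Figure D4:**
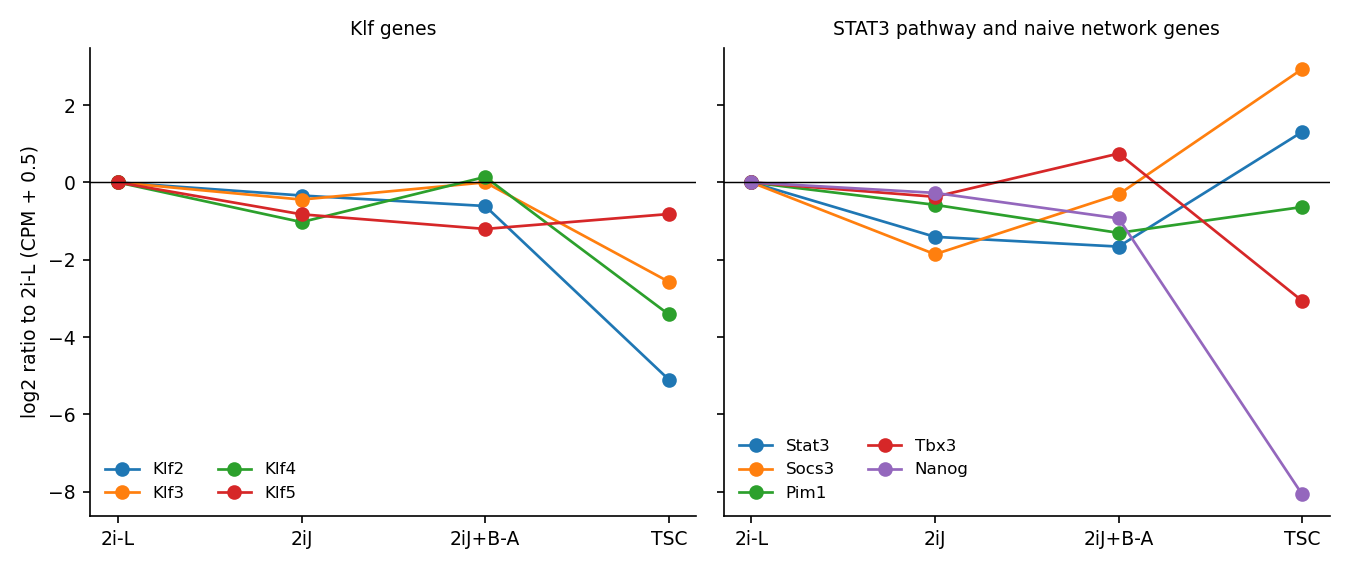
Log2 ratio to 2i−L (CPM + 0.5) in each library for Klf2, Klf3, Klf4 and Klf5 on the left and for STAT3 pathway and naive network genes on the right, 1 library per position; lines join the points of 1 gene and stand for no course in time. Klf4, Socs3 and Tbx3 are each higher in 2iJ+B−A than in 2iJ, whereas Klf2, Klf5, Stat3, Pim1 and Nanog are lower there, and in TSCs Stat3 and Socs3 are above their 2i−L level while Klf4 and Nanog are below it.

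Of 11 other genes of the naive network, 10 had lower levels in 2iJ+B−A than in 2iJ. None of these 10 was past 2-fold, beside 3.17% of all genes that were lower. The median log2 ratio of the 11 was −0.55, against −0.0023 over all genes. Among the 10, Gbx2 had −0.010, but 0.22 when counted without strand, so its direction rests on the strand setting. Tbx3, which supports the naive state, was the 1 gene of the 11 with a higher level. It was also the 1 gene past 2-fold, beside 5.81% of all genes that were higher. It went from 113 to 247 CPM, a log2 ratio of 1.12, next to the 1.17 of Klf4. Nanog went from 700.3 to 444 CPM, a log2 ratio of −0.66, and Klf2 was nearer to this side, with −0.27. In TSCs 9 of the 11 were 2-fold or more lower than in 2iJ, beside 17.6% of all genes, and 1, Gbx2, was higher, at 1.32, beside 19.4%. The median was −2.69, and Pou5f1 at −8.91 and Nanog at −7.80 led the list. Klf2, at −4.76, thus changed less than these 2 core genes and more than Sox2, at −1.59, and Zfp42, at −1.90.

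Of 12 genes that respond to BMP or Activin signals, 5 were 2-fold or more higher and 5 lower in 2iJ+B−A than in 2iJ, beside 5.81% and 3.17% of all genes, with a median log2 ratio of 0.16. The BMP targets Id1 and Id2 went from 8.01 to 91.6 CPM and from 20.5 to 166 CPM, and the Activin and Nodal targets Lefty1 and Lefty2 from 128 to 0.373 CPM and from 265 CPM to 0 counts. The largest Klf change in that comparison, 2.25-fold for Klf4, was small beside these. Klf10, the member named for its response to TGF-beta, had 77.3 and 78.0 CPM.

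The remaining Klf and Sp genes gave 16 in the count tables, of which 11 passed the filter. None of the 11 was past 2-fold in 2iJ against 2i−L, where 1.23% of all genes were higher and 0.918% lower. In 2iJ+B−A against 2iJ, 1 was 2-fold or more higher and 2 lower, beside 5.81% and 3.17% of all genes, with a median of −0.22. Sp6, a factor of tooth and skin epithelium also called epiprofin, went from 5.21 to 26.4 CPM, a log2 ratio of 2.24. It had 179 and 993 counts on its own strand, and 8 and 7 on the opposite one. Counted without strand it had 1 and 11 counts and a log2 ratio of 0.59, so its call comes from the stranded count alone. Sp8 went from 4.22 to 0.532 CPM and Sp5, a Wnt target, from 4.40 to 1.81 CPM. In TSCs, 2 of the 11 were 2-fold or more higher and 3 lower than in 2iJ, beside 19.4% and 17.6% of all genes, with a median of −0.26. Klf8, which like Klf3 recruits CtBP, had 3.93 CPM in TSCs and 129 CPM in 2iJ, a log2 ratio of −4.87, next to the −4.76 of Klf2. Klf11, which like Klf9 binds Sin3A, had 63.5 CPM against 22.6 CPM in 2iJ, 1.47. Sp5 and Sp8 had 1 count each in TSCs, and Sp6 had 17.4 CPM, with a log2 ratio to 2iJ of 1.65 that was 0.22 without strand. Klf1, Klf14 and Klf17 stayed under 1 CPM in every library.

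Of 16 cofactors and ubiquitin ligases of Klf proteins, none was past 2-fold in either comparison of mESC media. Over all genes, 1.23% were higher and 0.918% lower in 2iJ against 2i−L, and 5.81% and 3.17% in 2iJ+B−A against 2iJ. In TSCs against 2iJ, 2 of the 16 were 2-fold or more higher and 3 lower, beside 19.4% and 17.6% of all genes, with a median of −0.37, and the values of these 5 are given as a description. Sin3b, a scaffold of the repressor complex that Klf9 and its relatives bind, had 548 CPM in TSCs and 169 CPM in 2iJ, 1.69, whereas Sin3a had 161 and 267 CPM. Fbxo32, a ligase subunit, had 9.94 and 1.37 CPM, and Hdac1, Kat2b and Btrc had log2 ratios of −1.27, −1.61 and −1.10. The CtBP genes, which Klf3 and Klf8 act through, had 75.0 and 66.1 CPM for Ctbp1 and 94.3 and 110 CPM for Ctbp2.

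The genes whose course over the 4 libraries was nearest to that of Klf2, Klf4 and Klf5 were found by the Euclidean distance of centred log2 values among 10267 genes that reached 10 CPM in some library. Lrmp, Dmd and Trps1 were nearest to Klf2, at distances of 0.099, 0.16 and 0.20. Lrmp had 19.7, 14.9 and 11.6 CPM in 2i−L, 2iJ and 2iJ+B−A and 0.0855 CPM in TSCs. That TSC value is the smallest signal taken as detectable, and Trps1 had 0.142 CPM there, against 7.15 CPM for Klf2. Both lie under the 0.5 CPM added before the logarithm, so their likeness to Klf2 in TSCs depends on that addition. Gpc3, Cyp2s1 and Tbx3 were nearest to Klf4, at 0.39, 0.47 and 0.52, and Cacnb1, Ephb3 and Slc25a33 to Klf5, at 0.13, 0.15 and 0.18. The nearest other member was Klf4 for Klf2, at 1.76, Klf3 for Klf4, at 0.81, and Klf10 for Klf5, at 0.54. The candidates outnumber the members so far that the distances to each are not comparable, and over 4 libraries such likeness is a description.

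Some of these counts carry limits of their own. Parts of the Klf4 transcript match 5 other places in the genome, 4 outside annotated genes and 1 within Mycbp2. The longest match covers 43.8% of its length at 84.8% identity, and those at 96.1% and 96.6% identity cover 24.5% and 14.2%. Parts of Klf5 match 2 places, over 54.1% and 53.0% of its length, at 86.3% and 87.55% identity. Read pairs that map to more than 1 place are not in these counts. How many pairs of either gene were lost in this way was not measured, so their levels may be too low to an unknown extent. Klf7 overlaps exons of Gm17427 and Gm13748 on the opposite strand, and counting without strand left 49.7% to 56.8% of its stranded count. Those genes had 0 or 1 counts in each library. On the opposite strand Klf7 itself had 2 to 5 counts, against 893 to 1497 on its own strand, so its stranded count held little signal from the other strand. The annotated 3′ end of Klf5 is short, 76 bases after the stop codon, which bears on its level per length. Markers of other cell types were low in the mESC libraries. The summed level of 9 fibroblast markers was 32.9 to 51.3 CPM there and 9.32 CPM in TSCs, where Col1a2, Dcn and Lum were at 0, that of 8 endothelial and blood markers 7.97 to 11.4 CPM and 72.0 CPM in TSCs, where Hbb-b1 and Ptprc were at 0, and that of 8 endoderm and mesoderm markers 6.44 to 8.60 CPM and 29.7 CPM in TSCs. Of the endothelial and blood sum in TSCs, Gata1 gave 38.8 CPM, Kdr 22.3 CPM and Cdh5 10.7 CPM, while the endothelial markers Tek and Tie1 were at 0.0285 and 0.0855 CPM there, below every mESC library. The part of these markers in the Klf levels was not tested.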

How the data were processed

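Poly-A RNA of 4 samples was sequenced as stranded paired-end libraries. Per the paper's methods and the submitters' processing notes, the authors used CASAVA 1.8.2, trimmed reads with TrimGalore and cutadapt at a quality cutoff of 20, and counted with STAR 2.4.2a on NCBIM37. The paper also used ComBat against batch effects, as its experiments were run on different days. The raw counts were compared here without that step, and the experiment day of each library was not taken into account. The annotation release is not given in the sources used here. The deposited values are raw counts of read pairs per gene for both strand settings and without strand. Counts on the reverse strand, 29.1 to 32.1 times those on the other, were used. Genes held 82.2% to 83.6% of the pairs, and 6.72% to 7.01% mapped to several places. The other pairs stayed out of library sizes, and 0 columns belonged to other samples. Symbols were found for 37205 of 37620 identifiers.

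CPM used TMM factors (edgeR 4.0.16, R 4.3.3). Genes with 1 CPM in at least 1 library were compared as log2 ratios of CPM + 0.5, with exact Clopper-Pearson intervals of the split of counts. Levels have exact Poisson intervals. With 1 library per condition no test was made, and a gene was called past 2-fold. Levels per kb used the union of exons. Transcripts were aligned with minimap2 2.31 and promoters read with samtools 1.23.1. Python 3.11.15, pandas 2.3.3 and numpy 2.4.6 did the rest, and scripts were tested on simulated data. All members were named, genes of other lists where past 2-fold in a comparison (at most 5 per list) or as markers of a cell type, and the 3 nearest genes of Klf2, Klf4 and Klf5. Genes named outside this rule (Pim1, Sin3a, Ctbp1, Ctbp2, Klf1, Klf14, Klf17, Gbx2, Etv5, Fosl1) were chosen after their values were seen. Members and lists were chosen with earlier results of these data known. Alternatives were unstranded counts, other normalizations, pseudocounts, filters and thresholds, and no length scaling.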

Additional observations from a re-analysis of the deposited data

How the results depend on the processing

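Depth was not the limit for these genes, of which the lowest count was 202, but 1 library per condition was: variation between cultures is unknown for every value. Of 280 alternative log2 ratios of the Klf genes (unstranded counts, DESeq2 1.42.0 size factors, totals without TMM, pseudocounts of 0.1 and 1 CPM, no filter and a filter of 5 CPM), 275 stayed within the counting interval and 3 changed sign, all with a main size of at most 0.077. None past 2-fold reversed. The largest shift was 0.15, for Klf7 in TSCs against 2iJ, −0.55 without strand. The number of Klf genes past the threshold was 1 in 2iJ against 2i−L, and became 2 at 1.5-fold and 0 at 3-fold; in 2iJ+B−A against 2iJ it was 1, and became 3 and 0; in TSCs against 2iJ+B−A it was 3, and became 6 at 1.5-fold. The share of Klf2, Klf4 and Klf5 without length scaling was 41.4% with 2i−L, 35.5% with 2iJ, 28.2% with 2iJ+B−A and 6.67% for TSCs. Over all genes in 2iJ against 2i−L, the 175 higher and 131 lower genes became 422 and 230 with a pseudocount of 0.1 CPM, 94 and 87 with 1 CPM, 105 and 87 with a filter of 5 CPM, 768 and 557 at 1.5-fold, and 14 and 21 at 3-fold. At 1.5-fold and 3-fold, the 828 higher and 452 lower genes of 2iJ+B−A against 2iJ became 1700 and 1244, and 295 and 138. For TSCs against 2iJ, the 2510 lower genes became 3918 and 1484, and the 2774 higher ones 1610 at 3-fold. For TSCs against 2iJ+B−A, the 2336 higher and 2311 lower genes became 3779 and 3670, and 1291 and 1382. Counting without strand, tried for the other gene lists after the data were seen, ended 2-fold calls of Sp6 and Fosl1 and of no other listed gene. No paired analysis was possible because each condition has 1 library.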

Other observations

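Klf2 protein is known to be controlled by ERK, and 16 genes that respond to ERK or serum were read in the same libraries, all 3 mESC media holding the MEK inhibitor. None of the 16 was past 2-fold between 2iJ and 2i−L, where 1.23% of all genes were higher and 0.918% lower in 2iJ. In 2iJ+B−A, 4 were 2-fold or more higher than in 2iJ, beside 5.81% of all genes. Among them were Spry2, a feedback inhibitor of receptor signals, with 17.6 against 6.76 CPM, and Junb, with 11.5 against 4.66 CPM. Junb also belongs to the LIF, JAK and STAT3 genes described above, so it is counted in both lists, here and in TSCs. In TSCs, 10 of the 16 were 2-fold or more higher than in 2iJ, beside 19.4% of all genes, and 1 lower, beside 17.6%, with a median log2 ratio of 1.58. The call of 1 of the 10, Fosl1, was lost without strand, where its log2 ratio was 0.78 in place of 1.51. Egr1, an immediate early gene, had 72.8 CPM in TSCs and 0.90 CPM in 2iJ, Fos 61.8 and 1.02 CPM, and Etv4 42.4 and 0.553 CPM. Etv5, the one that was lower, had 63.0 CPM in TSCs and 335 CPM in 2iJ. The TSC library, which names no inhibitor, was thus the one with the highest levels of Egr1, Fos and Etv4 and the lowest of Klf2, and its cell line and its medium cannot be told apart. Klf2 was read here as RNA. Its protein was not measured, and control of Klf2 by ERK was not tested.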
